A study of Drosophila melanogaster with 32 samples.

Results

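Arc1 and CR10102 are neighboring genes of chromosome arm 2R in *Drosophila melanogaster*, and the small RNA reads counted at both of them in Ago1 RISC and Ago2 RISC are described here. RISC, the RNA-induced silencing complex, is an Argonaute protein with its small RNAs, and here the name stands for what an antiserum against that Argonaute precipitated. The members are 2 rows, FBtr0087560 (Arc1) and FBtr0305617 (CR10102), of the 2303 transcript rows to which reads had been assigned on the dm6 genome. They were chosen by their measured reads, which were higher in old than in young flies in Ago2 RISC, so that difference is given below as a description and was not tested. The choice was made from these same libraries with earlier results known. The tests of sex, genotype and precipitate below, and of the interactions with age, are therefore not independent support for what they show.

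The 32 libraries came from whole adult flies of 2 genotypes, wDah (wildtype) and wDah;dfoxo{delta}94 (called dFOXO-null), of both sexes, at 5 d and 35 d of age, after precipitation with guinea pig antisera against Ago1 or Ago2. The dFOXO-null line, in the wDah background, has a deletion in foxo, the gene of the transcription factor dFOXO. The study describes it as a null allele and the flies as dFOXO-null, and no other foxo allele was sequenced. There were 2 replicates in each of the 16 groups, which are the experiment numbers of the labels, and each lysate pooled 40 flies. Within a genotype and an experiment number, the young and the old flies were siblings, and each precipitate therefore has 8 pairs of libraries from siblings. The sexes of a genotype shared their vials, so the male and the female pair of a genotype and experiment may not be independent. Mapped reads are here the counts of all rows summed within a library, from reads of up to 25 nt. They ranged from 705569 to 2323765 per Ago1 library and from 497380 to 3894561 per Ago2 library. Every valid alignment of a read was reported, so a read that fits several rows can count at each. The sums can therefore exceed the number of reads. Whole flies mix all tissues, so fewer cells of a type and less small RNA per cell cannot be told apart.

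Ago1 mainly carries miRNAs, which are cut from short hairpins by Dicer-1. Ago2 mainly carries siRNAs, which Dicer-2 cuts from long double-stranded RNA of viruses, transposons, hairpin loci and overlapping transcripts. Arc1 encodes a protein derived from the Gag of a Ty3/gypsy retrotransposon. The protein forms capsids that package Arc1 mRNA and pass between cells at the fly neuromuscular junction, and Arc1 in the brain bears on behavior and metabolism. CR10102 is annotated as a pseudogene, and no function of it is assumed here. Small RNAs matching a coding gene can be siRNAs or pieces of its mRNA, and the count table gives neither read length nor strand. Reads at rRNA rows made up 20.9% to 55.28% of the Ago1 and 36.21% to 80.55% of the Ago2 libraries. None of the libraries came from a control serum. RNA bound by an Argonaute and RNA carried along in the precipitate therefore cannot be told apart.

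In the dm6 assembly, with the Ensembl release 115 annotation, Arc1 spans 2R:14357927-14360297 on the minus strand as 1 exon of 2371 nt. Its coding sequence lies at 2R:14359439-14360200, and the rest of the transcript is untranslated. CR10102 spans 2R:14360433-14361780 on the same strand and is 1348 nt long, and a gap of 135 nt separates its 3′ end from the 5′ end of Arc1. Arc2, the related Gag-derived gene on the other side of CR10102, lies 143 nt farther on the plus strand and was not analysed here. No annotated gene overlaps either member. Of the other genes within 50 kb, 1 has a row, CG8613, with 0 to 4 reads per library, too few to test.

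The sequences of both transcripts, read from the dm6 genome, share a block of 1335 nt with 1 mismatch, an identity of 99.93%. The block runs from position 399 to position 1733 of the Arc1 transcript and makes up 56.3% of it, 461 nt of coding sequence and 874 nt of the 3′ untranslated region. The same block makes up 99% of CR10102, of which only 13 nt lie outside it. Of the 1328 windows of 21 nt in CR10102, 1317 (99.2%) occur in Arc1 with at most 1 mismatch, the number that the alignment allowed. None of these windows matched Arc1 on the opposite strand, and none matched Arc2 on either strand. Since every valid alignment of a read was reported, almost every read counted at CR10102 was counted at Arc1 too, and which copy a read of the block came from cannot be told. The 2 rows are therefore not independent measurements. Reads of Arc1 outside the block, over 1036 nt, are approximated below by the Arc1 count minus the CR10102 count and are called Arc1-only reads. Among the 21-nt windows of Arc1, 53 also match elsewhere in the genome with at most 1 mismatch, as do 36 of CR10102. Of the 53, 17 reach outside the block, so Arc1-only reads can include reads from other places in the genome.

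**Figure D1:**
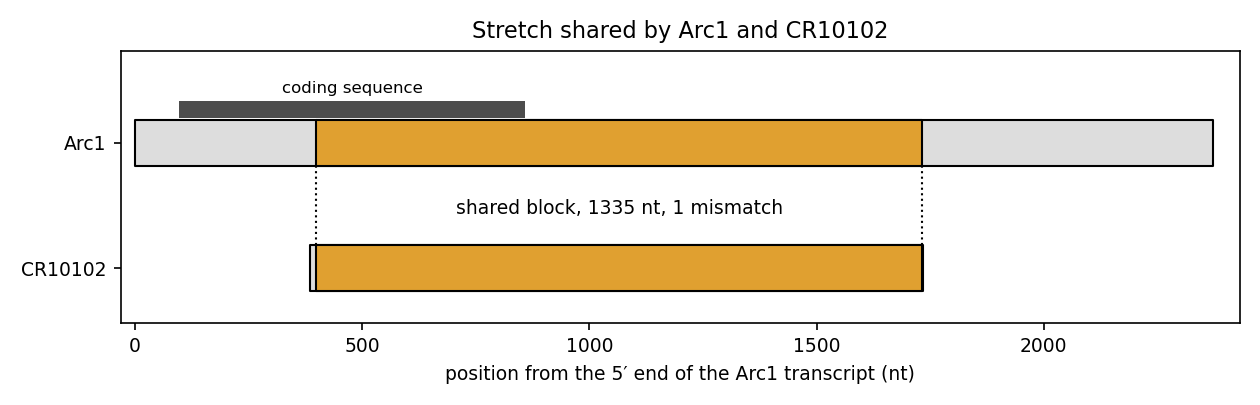
Transcripts of Arc1 (2371 nt) and CR10102 (1348 nt), drawn to scale along positions from the 5′ end of Arc1, with the coding sequence of Arc1 as a dark bar. The orange block of 1335 nt covers nearly all of CR10102 and 56.3% of Arc1, and reads from it count at both rows.

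The lowest and highest Arc1 counts were 18 reads, in 5 d dFOXO-null females of experiment 2 in Ago1 RISC, and 2187 reads, in 35 d wDah males of experiment 1 in Ago2 RISC. For the first, a 95% Wilson interval of the abundance ran from 0.000632% to 0.00158% of mapped reads, and for the second from 0.203% to 0.221%. Counts at CR10102 ran from 12 to 1881 in the same 2 libraries. The reads have no molecular identifiers, so these intervals cover counting error only, and they treat every count in the total as a separate read.

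In Ago2 RISC, Arc1 reads were more abundant in males than in females and more abundant at 35 d than at 5 d. In wDah males they were 0.0284% and 0.0162% of mapped reads at 5 d in experiments 1 and 2, and 0.212% and 0.0726% at 35 d. In dFOXO-null males they were 0.0193% and 0.00853% at 5 d and 0.0686% and 0.0660% at 35 d. Every 35 d male library lay above every 5 d male library. In wDah females Arc1 reads were 0.00418% and 0.00211% at 5 d and 0.0155% and 0.0152% at 35 d. In dFOXO-null females they were 0.00218% and 0.00159% at 5 d and 0.00798% and 0.00392% at 35 d. Among females the ages overlapped slightly, because the 35 d dFOXO-null library of experiment 2 lay below the 5 d wDah library of experiment 1.

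CR10102 followed the same order in Ago2 RISC. Its reads in wDah males were 0.0247% and 0.0134% of mapped reads at 5 d and 0.182% and 0.0566% at 35 d, and in dFOXO-null males 0.0147% and 0.0065% at 5 d and 0.0477% and 0.0356% at 35 d. In females of both genotypes they ranged from 0.00113% to 0.00341% at 5 d and from 0.00294% to 0.012% at 35 d. Across the 16 Ago2 libraries the log2 abundances of both rows correlated with r = 0.9959, as rows that share most of their reads must.

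**Figure D2:**
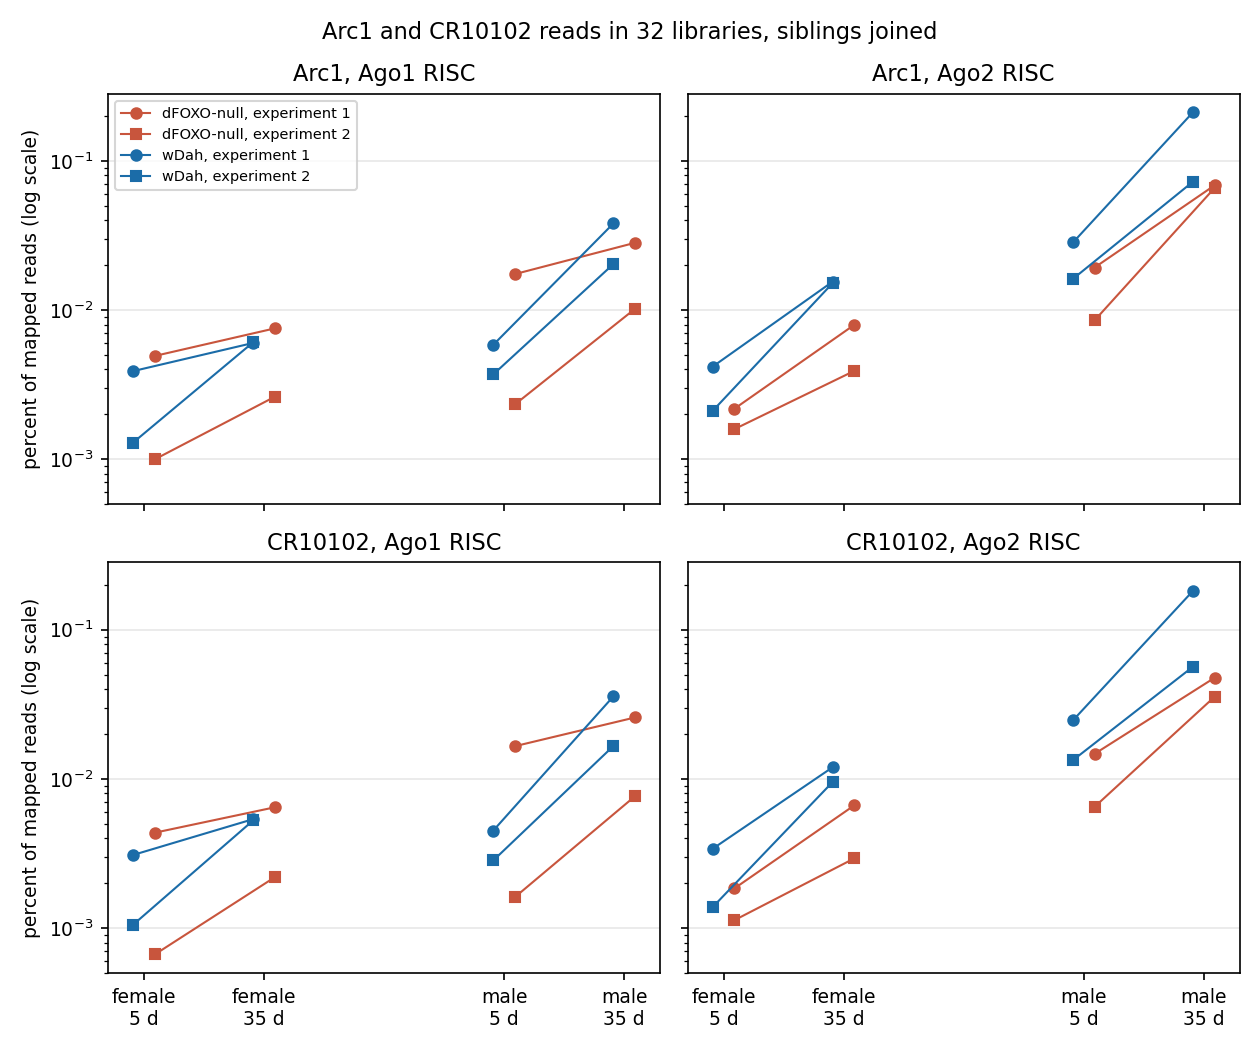
Percent of mapped reads at Arc1 (top) and CR10102 (bottom) in each of the 32 libraries on a log scale, in Ago1 RISC (left) and Ago2 RISC (right), with sibling flies of 5 d and 35 d joined, wDah in blue, dFOXO-null in red, experiment 1 as circles and experiment 2 as squares. All lines rise with age, and in Ago2 RISC the 35 d males reach 0.0660% to 0.212% for Arc1.

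In Ago1 RISC the levels were lower and spread more between experiments. Arc1 reads in wDah males were 0.00586% and 0.00371% of mapped reads at 5 d and 0.0381% and 0.0204% at 35 d. In dFOXO-null males they were 0.0174% and 0.00233% at 5 d and 0.0283% and 0.0102% at 35 d, so that the 5 d library of experiment 1 lay above the 35 d library of experiment 2. In females of both genotypes they ranged from 0.000999% to 0.00493% at 5 d and from 0.00263% to 0.00754% at 35 d. CR10102 in Ago1 RISC ranged from 0.000666% to 0.0166% at 5 d and from 0.0022% to 0.0358% at 35 d.

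Reads at Arc1 per nucleotide were compared with those of the other protein-coding rows of the same library, of which the table holds 1401. In 35 d males Arc1 ranked 2 and 6 in the wDah Ago2 libraries of experiments 1 and 2, and 1 and 3 in those of dFOXO-null. Of all reads at protein-coding rows it made up 8.5% and 2.31% in these wDah libraries and 5.25% and 3.07% in these dFOXO-null libraries. In 35 d males of Ago1 RISC it ranked 1 and 4 in wDah and 1 and 36 in dFOXO-null. In 5 d dFOXO-null females of experiment 2 it ranked 301 in Ago2 RISC and 278 in Ago1 RISC. These ranks include reads of the shared block, to which CR10102 RNA may contribute.

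With age, Arc1 reads in Ago2 RISC were higher in the older siblings of 8 of 8 pairs, by 2.46-fold to 7.73-fold with a median of 4.1-fold. This is the difference for which the members were chosen, in a contrast where 0.659% of the 1366 rows tested were called higher at an adjusted p under 0.05, and nothing is read from it. That share rested on single libraries, since the 10 rows called in either direction became 0 without the 5 d dFOXO-null females of experiment 2 (145 rows at an unadjusted p under 0.05 in edgeR) and 48 without the 5 d wDah females of experiment 2. Under TMM scaling 10 rows were called higher and 31 lower in that contrast, against 9 and 1. CR10102 was higher in 8 of 8 pairs, by 2.6-fold to 7.39-fold. Arc1-only reads, the part that no CR10102 read can supply, were also a larger share of mapped reads in 8 of 8 pairs, by 2.13-fold to 14.7-fold, with a fitted log2 fold change of 2.46 ± 0.34 (SE). They belong to the row chosen for this contrast and are not separate support. The smallest of the changes with age were in dFOXO-null females of experiment 2, where the Arc1 count was 62 reads at 5 d and 64 at 35 d in libraries of unequal depth.

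The size of the age difference in Ago2 RISC did not differ detectably between the sexes or the genotypes. The tests of this split the age values for which both rows were chosen, so they are not independent of the choice. The mean log2 ratio of Arc1 within sibling pairs was 1.98 ± 0.64 (SD, n = 4) in females and 2.46 ± 0.55 (SD, n = 4) in males. In edgeR's quasi-likelihood test of the interaction, the age effect in females minus that in males was -0.50 on the log2 scale with a 95% interval of -1.87 to 0.88 (adjusted p = 0.85), beside a median of 0.37 over all rows. The mean was 1.99 ± 0.69 (SD, n = 4) in dFOXO-null and 2.45 ± 0.50 (SD, n = 4) in wDah flies, and the interaction was -0.52 with an interval of -1.89 to 0.84 (adjusted p = 1.00), beside a median of 0.12. For CR10102 the same 2 terms were -0.37 (interval -1.90 to 1.17) and -0.59 (interval -2.10 to 0.93). All 4 intervals include 0 and reach farther below it than above. No row passed the edgeR test of either interaction (0% called), with 152 and 22 of 1366 rows at an unadjusted p under 0.05 and none called by DESeq2, and without the 5 d wDah females of experiment 2 the counts were 9 and 3.

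In Ago1 RISC, Arc1 and CR10102 reads were also higher in the older siblings of 8 of 8 pairs. Both rows were chosen from these 32 libraries with earlier results known, so the tests of this difference are not independent support for it. The ratio ranged from 1.53-fold to 6.51-fold for Arc1 and from 1.48-fold to 7.93-fold for CR10102. In experiment 1 the Arc1 ratios were 1.53, 1.54, 1.62 and 6.51, and in experiment 2 they ran from 2.63 to 5.49, with geometric means of 2.23-fold and 4.15-fold. The fit to group means gave log2 fold changes of 1.39 ± 0.53 (SE) for Arc1 and 1.46 ± 0.57 (SE) for CR10102, which did not pass edgeR's test (adjusted p = 0.343 for each), where 0.165% of 1212 rows were called higher. With the sibling pairs as a replicate block, both passed, with log2 fold changes of 1.59 and 1.71 and adjusted p = 0.0426 for each. With the experiment number alone as the block neither did (adjusted p = 0.0737 and 0.0762). Arc1-only reads were higher in 7 of 8 pairs, with a log2 fold change of 1.08 ± 0.40 (SE) and adjusted p = 0.334. The labels do not say whether Ago1 and Ago2 were precipitated from the same lysate, so both precipitates may come from the same flies.

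Both rows were lower in females than in males in Ago2 RISC. Arc1 was lower in 8 of 8 pairs matched for genotype, age and experiment, with female-to-male ratios from 0.0594 to 0.209. Females held 0.00659% ± 0.00578 (SD, n = 8) and males 0.0615% ± 0.0661 (SD, n = 8) of mapped reads. The sexes overlapped only across ages, since the highest 5 d female lay at 0.00418% and the lowest 5 d male at 0.00853%, and the highest 35 d female at 0.0155% and the lowest 35 d male at 0.0660%. In edgeR's test the log2 fold change, female over male, was -3.11 ± 0.34 (SE) for Arc1 (adjusted p = 4.0e-06) and -3.11 ± 0.38 (SE) for CR10102 (adjusted p = 8.9e-06). Sex moved much of the table, with 39% of 1366 rows called lower in females and a median log2 fold change of -0.49 over all rows, relative to which Arc1 and CR10102 each lay at -2.62. Under median-of-ratios scaling 404 rows were called higher and 246 lower, against 333 and 533 relative to all mapped reads, and Arc1 lay at -2.65. Arc1-only reads gave -2.97 ± 0.35 (SE, adjusted p = 6.0e-06).

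Some rows listed as markers of sex-specific tissues moved with sex in these libraries, as did 1 of 2 tested rows of neuronal genes in Ago2 RISC. Reads summed over the 7 rows for eggshell genes ranged from 0.00092% to 0.00729% in female and from 0.000392% to 0.00163% in male Ago2 libraries, and 4 of the 7 (Vm34Ca, Cp16, Cp18 and Cp19) had no reads in males. Of the 3 tested, 2 were called higher in females and 1, Cp38, was called lower (log2 fold change -1.18, adjusted p = 0.0327, edgeR), with 0.000392% to 0.00163% in males, the whole range of the male sum. Summed over the 6 rows of the male-specific-transcript (Mst) genes, they ranged from 0.00298% to 0.0242% in females and from 0.0155% to 0.0924% in males, with 4 of the 6 at 0 in females. Mst36Fb alone held 0.00298% to 0.0242% in females, the whole range of the female sum, and 0.014% to 0.0887% in males. The 3 rows of neuronal genes, para and a pair of Syt1 transcripts, summed to 0.0078% to 0.0469% in females and 0.0242% to 0.164% in males. One Syt1 transcript held nearly all of this sum, with 0.0232% to 0.163% in males and a log2 fold change, female over male, of -1.46 (adjusted p = 0.0135, edgeR), whereas the other had 0.07 (adjusted p = 0.848). Mst36Fb and the first Syt1 transcript had nearly equal log2 fold changes in Ago2 RISC, -1.45 and -1.46 for sex and -0.19 and -0.20 for age. Whether they share reads was not tested, so they may not be separate measurements. The part of the listed tissues in the sex difference of Arc1 was not tested.

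In Ago1 RISC, Arc1 was a smaller share of mapped reads in females than in males in 8 of 8 pairs, with ratios from 0.158 to 0.666. The log2 fold change was -1.70 ± 0.53 (SE) for Arc1 (adjusted p = 0.0195) and -1.73 ± 0.57 (SE) for CR10102 (adjusted p = 0.027) in edgeR's test, where 16.9% of 1212 rows were called lower. These calls depended on the denominator. Relative to reads at protein-coding rows alone, the log2 fold changes were -1.05 and -1.08 (adjusted p = 0.202 and 0.207). They also depended on single libraries, since without the 5 d dFOXO-null males of experiment 1 the values were -1.18 for Arc1 (adjusted p = 0.0889) and -1.11 for CR10102 (adjusted p = 0.115). The CR10102 call was also lost, with adjusted p from 0.051 to 0.0567, without the 5 d or the 35 d wDah males, the 35 d wDah females or the 35 d dFOXO-null males of experiment 1, and without the 5 d wDah females or the 35 d dFOXO-null females of experiment 2. Reads at rRNA rows made up 22.6% to 55.3% of female and 20.9% to 38.2% of male Ago1 libraries, and their part in the difference was not tested apart from the scaling without them given at the end.

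**Figure D3:**
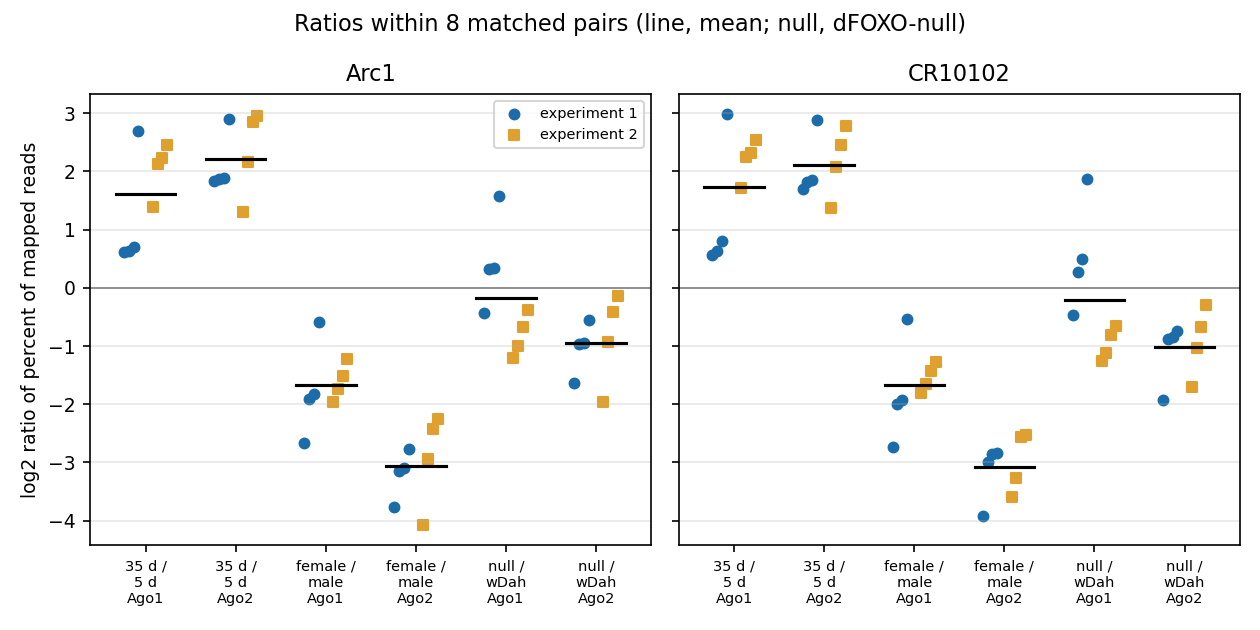
Log2 ratios of the percent of mapped reads at Arc1 (left) and CR10102 (right) within 8 matched pairs for age, sex and genotype in Ago1 and Ago2 RISC, with experiment 1 as blue circles, experiment 2 as orange squares and the mean of the 8 as a line. The ratios lie above 0 for age and below 0 for sex in all pairs, and for genotype the pairs lie on both sides of 0 in Ago1 RISC and below 0 in Ago2 RISC.

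In Ago2 RISC, Arc1 reads were a smaller share of mapped reads in dFOXO-null than in wDah flies in 8 of 8 pairs matched for sex, age and experiment. The dFOXO-null-to-wDah ratio ranged from 0.257 to 0.908 with a median of 0.524, and for CR10102 from 0.261 to 0.816 with a median of 0.548. The log2 fold change was -0.97 ± 0.32 (SE) for Arc1 and -1.05 ± 0.36 (SE) for CR10102, which did not pass edgeR's test (adjusted p = 0.0871 for each), where 1.32% of 1366 rows were called lower. With the experiment as a replicate block, the values were -0.94 and -1.02 and both passed (adjusted p = 0.0252 and 0.0169). In libraries without rRNA rows the Arc1 value was -0.41 (adjusted p = 0.486), and 266 rows were called higher and 15 lower, against 2 and 18 relative to all mapped reads. Arc1-only reads were a smaller share of mapped reads in 6 of 8 pairs, with a log2 fold change of -0.67 ± 0.33 (SE, adjusted p = 0.249). The geometric mean ratios of Arc1-only reads were 0.369 in females, lower in 4 of 4 pairs, and 1.04 in males, lower in 2 of 4, a difference between the sexes that was not tested. Those of all Arc1 reads were 0.477 in females, 0.569 in males, 0.612 at 5 d and 0.444 at 35 d.

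In Ago1 RISC the genotypes did not differ in a common direction. As a share of mapped reads, Arc1 was lower in dFOXO-null flies in 4 of 4 pairs of experiment 2 and higher in 3 of 4 pairs of experiment 1, with mean log2 ratios of -0.81 and 0.45. The fitted log2 fold change was 0.09 ± 0.52 (SE) with a 95% interval of -1.01 to 1.20 for Arc1, and 0.16 with an interval of -1.04 to 1.35 for CR10102 (adjusted p = 0.949 and 0.896, edgeR). The median over all rows was 0.54, and 0.248% of rows were called in either direction. The sign of both values turned under TMM scaling, to -0.38 and -0.31. No test of the difference between the genotype effects of Ago1 and Ago2 RISC was made.

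Between the precipitates, Arc1 made up more of the mapped reads in Ago2 than in Ago1 RISC in 15 of 16 matched libraries, with ratios from 0.443 to 6.46 and a median of 2.46. The exception was the 5 d dFOXO-null females of experiment 1, with 0.00493% in Ago1 and 0.00218% in Ago2 RISC. The geometric mean ratio was 3.58 in males and 1.37 in females. Each value was relative to libraries of unlike make-up, since miRNA hairpins held 12.3% to 49% of the Ago1 reads and 0.457% to 6.59% of the Ago2 reads, and protein-coding rows 0.41% to 2.38% and 1.21% to 5.48%. The log2 fold change was 1.00 ± 0.31 (SE) for Arc1 (adjusted p = 0.0107) and 0.84 ± 0.34 (SE) for CR10102 (adjusted p = 0.0433) in edgeR's test, with 42.1% of 1297 rows called higher and a median of 0.59 over all rows. Relative to reads at protein-coding rows the sign turned, to -0.41 (adjusted p = 0.499) and -0.56 (adjusted p = 0.316), and neither call held under TMM or median-of-ratios scaling, in libraries without miRNA hairpins or in DESeq2. In libraries without rRNA rows the values were larger, 1.82 for Arc1 and 1.67 for CR10102 (adjusted p = 4.5e-05 and 0.00033), with 824 rows called higher and 92 lower, and Arc1-only reads gave 1.69 ± 0.26 (SE, adjusted p = 9.0e-06). The CR10102 call was also lost without any single one of 19 of the 32 libraries, with adjusted p up to 0.108 when the 35 d wDah males of experiment 1 in Ago2 RISC were left out. The 19 were all 8 Ago2 libraries of experiment 1, all 8 Ago1 libraries of experiment 2, the Ago1 library of 35 d wDah females of experiment 1, and the Ago2 libraries of 35 d wDah females and 35 d dFOXO-null males of experiment 2. Under TMM scaling 88 rows were called higher and 197 lower, against 546 and 142 relative to all mapped reads.

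**Figure D4:**
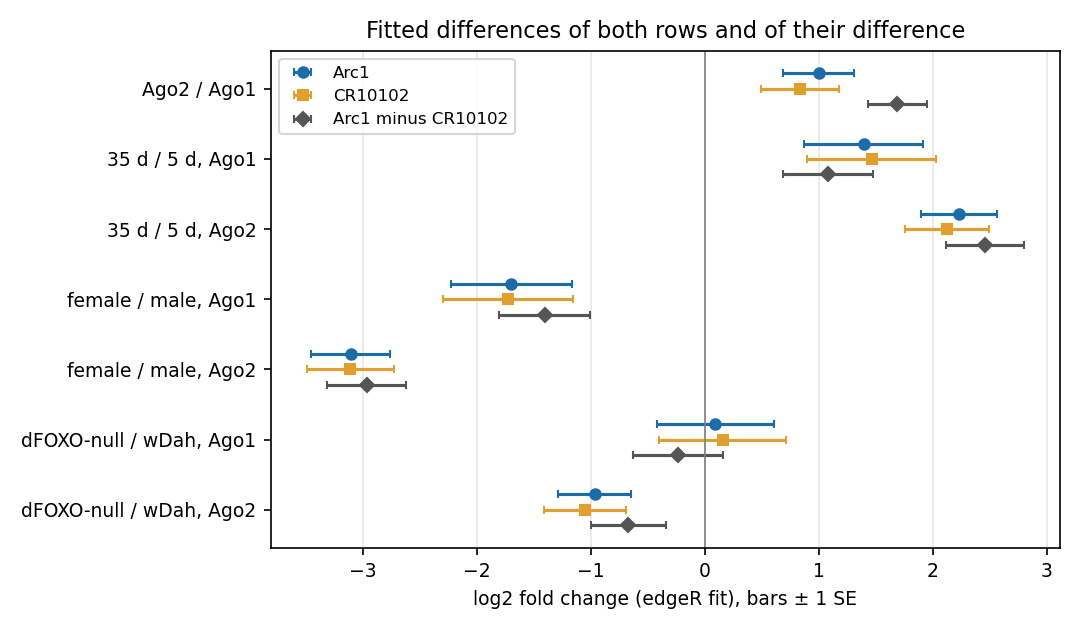
Fitted log2 fold changes (points) with 1 SE (bars) of Arc1, CR10102 and the Arc1 count minus the CR10102 count for 7 comparisons, relative to all mapped reads. The 3 quantities lie on the same side of 0 in each comparison except genotype in Ago1 RISC, and both sex contrasts lie below -1.

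A ratio of both rows within a library does not depend on the scaling. CR10102 reads amounted to 54% to 95.1% of Arc1 reads, with a median of 80.4% over the 32 libraries, whereas the shared block is 56.3% of the length of Arc1. Per nucleotide, reads at the block were 0.91 to 15.1 times as dense as Arc1-only reads, with a median of 3.2. With 2 copies of the block that give reads as evenly as the rest of Arc1, this value would be 2. It was above 2 in 14 of 16 Ago1 libraries and 11 of 16 Ago2 libraries, with medians of 3.72 and 2.57. The count table gives no positions of reads within a row.

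The share that CR10102 took of the Arc1 reads was 82.6% ± 8.31 (SD, n = 16) in Ago1 and 75.7% ± 9.18 (SD, n = 16) in Ago2 RISC. In an exact two-sided sign-flip test over the 16 matched libraries the mean log2 ratio was -0.13, lower in Ago2 RISC in 11 of 16 pairs (p = 0.0272, 0.0816 after Benjamini-Hochberg adjustment over the 3 ratios tested), which fails the adjusted threshold. Within experiment 1 the difference was -0.12 and within experiment 2 -0.15 (exact p = 0.133 and 0.164). The experiments themselves differed by more, with shares of 84.1% ± 6.99 (SD, n = 16) in experiment 1 and 74.1% ± 8.77 (SD, n = 16) in experiment 2, which was not tested. In Ago2 RISC the log2 ratio differed by -0.01 between females and males (exact sign-flip p = 0.938 over 8 pairs) and by -0.08 between dFOXO-null and wDah (exact permutation p = 0.469), with adjusted p = 0.938 and 0.704. The genotype test exchanged labels within sex and age without pairing by experiment, so the difference between experiments stayed in its spread. Within experiments 1 and 2 the genotype difference was -0.08 and -0.07. With age the log2 ratio of CR10102 to Arc1 was lower in 7 of 8 sibling pairs in Ago2 RISC and higher in 6 of 8 in Ago1 RISC, given as a description.

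**Figure D5:**
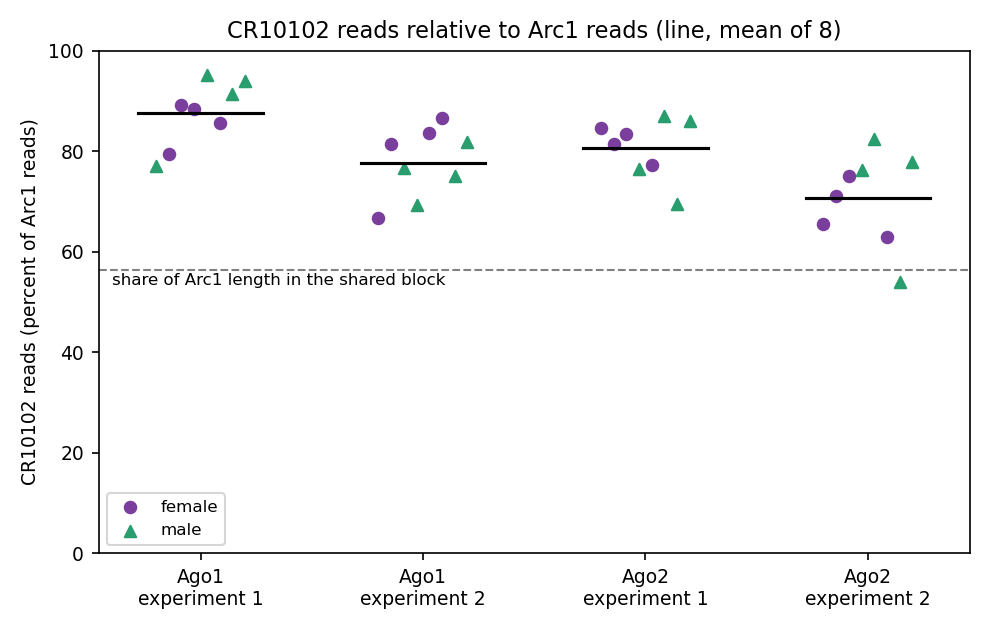
Reads at CR10102 as a percent of reads at Arc1 in each library, by precipitate and experiment, females as purple circles and males as green triangles, with the mean of 8 libraries as a line. The dashed line is the 56.3% of the length of Arc1 that lies in the shared block, and 1 library, the 35 d dFOXO-null males of experiment 2 in Ago2 RISC with 54%, lies below it.

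The rows whose abundance followed Arc1 most closely over the 16 Ago2 libraries, CR10102 aside, were 5SrRNA-Psi:CR33371 (r = 0.87), the snoRNAs Me18S-G1358a (r = 0.87) and Me18S-G1358b (r = 0.86), RhoGAP102A (r = 0.84) and 5SrRNA-Psi:CR33356 (r = 0.84). For CR10102 the same first 4 rows and the kinase gene Lk6 (r = 0.83) came out. In Ago2 RISC all these rows were higher at 35 d and lower in females. The log2 fold changes for age and sex were 2.10 and -2.39 for Me18S-G1358a and 1.19 and -2.86 for 5SrRNA-Psi:CR33371. They were 0.69 and -1.06 for Lk6, and 2.23 and -3.11 for Arc1. Both snoRNAs and 5SrRNA-Psi:CR33371 were called higher with age in edgeR, whereas RhoGAP102A, 5SrRNA-Psi:CR33356 and Lk6 were not. The age difference was therefore not particular to Arc1 and CR10102. The correlations are of log2 reads per mapped reads over libraries that share sex, age and depth differences, and the points are not independent. The snoRNAs are close copies of each other that guide methylation of 18S rRNA, and reads at both can be shared. RhoGAP102A and Lk6 held at most 25 and 35 reads in an Ago2 library, so their values are coarse.

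Other genes of related kinds gave little to compare. Of the listed hairpin loci, a known kind of source of siRNAs for Ago2, hpRNA:CR46342 and hpRNA:CR32207 had rows. Neither was called with age in Ago2 RISC (log2 fold changes of 0.39 and 0.17). Both were lower in females (-1.08 and -1.60, adjusted p = 0.00166 and 0.00336, edgeR), as were 39% of all rows tested. Neither was called higher in Ago2 than in Ago1 RISC, with log2 fold changes of 0.01 and -0.84. The second was called lower there (adjusted p = 0.0241, edgeR), as were 142 of 1297 rows, beside a median of 0.59 over all rows. Iris, a host gene derived from a retroviral envelope, held 0 to 10 reads per library, and kay, the fly Fos gene and an activity-regulated gene as Arc1 is, held 0 to 17, both too few to test. Of the neuronal rows 2 were tested, and none was called with age in Ago2 RISC, with log2 fold changes of -0.08 and -0.20 for Syt1. Of 12 tested rows of digestive enzymes none was called higher and 1, Jon25Bi, was called lower at 35 d in Ago2 RISC, where it was the only row called lower of 1366 tested (0.0732%), against 31 under TMM scaling. The median of the 12 was -1.29 beside -0.04 over all rows, whereas Mal-A1 lay at 1.75 and was not called. Jon25Bi averaged only 7.69 reads per Ago2 library. The rows of gammaTry and deltaTry had equal mean counts and equal log2 fold changes (-1.08). Whether they share reads was not tested, so the 12 may not all be separate measurements.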

How the data were processed

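Small RNAs precipitated with antisera against Ago1 or Ago2 were sequenced in 32 libraries from whole flies. The authors trimmed adapters with Trim Galore, dropped reads over 25 nt, aligned the rest to dm6 with Bowtie, reporting all valid alignments at a tolerance of 1 mismatch, and assigned them to annotated transcripts with featureCounts (tools per the labels and the study's methods; versions and strand setting not given in the sources used here). The deposited counts are whole numbers without normalization, and the deposited percent values are each count over its column total. The percent printed here was recomputed and differed from the deposited percent by at most 0.457% of a value. The mature miRNA and transposon tables hold neither member and were not used.

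Counts were tested with edgeR 4.0.16 (R 4.3.3) by the quasi-likelihood test on group means, within Ago1, within Ago2 or over all 32 libraries, with the column total as library size, rows of a mean of at least 5 reads, and Benjamini-Hochberg adjustment over all rows tested at 0.05. SE is the log2 fold change over the root of F. DESeq2 1.42.0, other scalings, filters, blocks and left-out libraries were alternatives. Ratios used 0.5 added reads and exact tests (Python 3.11.15). The fit was also run on simulated counts with known changes, drawn independently for each row and library. The simulation held no experiment effect and no reads shared between rows, so it cannot show how the fit does under those. Arc1-only reads, and the library sizes of protein-coding rows and without rRNA rows, were chosen after seeing the data. Of 2303 rows, 2299 matched the Ensembl release 115 annotation. The 102 miRNA hairpin rows were identified by symbol.

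The members, lists and tests were chosen with earlier results of these data known. Named were both members, rows within 50 kb of Arc1, the 5 rows most correlated with each member over the Ago2 libraries, and listed genes with the highest counts. Jon25Bi was named as the only listed enzyme called. Mal-A1, gammaTry, deltaTry, the genes at 0 and the untested rows were named after their values were seen. Per the labels, siblings share a genotype and experiment number. As a check, the deviations from the group mean correlated above 0.1 in 4 of 4 sibling group pairs in Ago1 (r from 0.22 to 0.56) and in 2 of 4 in Ago2 (r from -0.05 to 0.36). So did 20 of 24 other pairs of groups in Ago1 and 19 of 24 in Ago2, so the check does not set siblings apart from a shared experiment, and the sibling pairing rests on the labels. The replicates are separate experiments. No replicate pair agreed within sampling noise. Since each group has 2 libraries, precision rests on the spread pooled over groups.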

Additional observations from a re-analysis of the deposited data

How the results depend on the processing

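The sex difference in Ago2 RISC and both interactions with age kept their direction and their side of the threshold under every alternative that did not leave out a library, and the age difference in Ago2 RISC, which was not tested, kept its direction. Age in Ago1 RISC passed with the replicate block of sibling pairs (Arc1 1.59, CR10102 1.71), and genotype in Ago2 RISC with the replicate block (-0.94, -1.02); the block changed no other call. Sex in Ago1 RISC no longer passed with the library size of protein-coding rows (-1.05, -1.08) or without rRNA rows (-1.39, -1.42). Ago2 against Ago1 no longer passed under TMM (0.61, 0.45), median of ratios (0.72, 0.57), without miRNA hairpins (0.54, 0.38) and in DESeq2 (0.72, 0.57), turned to -0.41 and -0.56 relative to protein-coding rows, and rose to 1.82 and 1.67 without rRNA rows and to 1.69 in Arc1-only reads. Genotype in Ago1 RISC, called nowhere, turned under TMM (-0.38, -0.31), median of ratios (-0.24, -0.18), DESeq2 (-0.24, -0.18) and the replicate block (-0.17, -0.17), and for Arc1 relative to protein-coding rows (-0.057) and in Arc1-only reads (-0.23). The CR10102 to Arc1 ratio of Ago2 over Ago1 no longer passed its unadjusted test with means of the 2 experiments (-0.13, exact p = 0.0938). The cause of these changes was not tested.

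Leaving out 1 library at a time gave, for Arc1 and CR10102, 1.16 to 1.91 and 1.18 to 2.08 for age in Ago1 RISC, 1.98 to 2.40 and 1.86 to 2.32 for age in Ago2, -2.09 to -1.18 and -2.20 to -1.11 for sex in Ago1, and -3.26 to -2.86 and -3.30 to -2.84 for sex in Ago2. It gave -0.42 to 0.34 and -0.46 to 0.40 for genotype in Ago1, -1.14 to -0.72 and -1.23 to -0.78 for genotype in Ago2, -0.85 to -0.01 and -0.72 to 0.17 for age by sex, -0.82 to -0.04 and -0.97 to -0.05 for age by genotype, and 0.88 to 1.26 and 0.70 to 1.15 for Ago2 against Ago1. The CR10102 ratio gave -0.15 to -0.11 between the precipitates, -0.079 to 0.035 for sex and -0.12 to -0.03 for genotype. The call lost without a library was that of sex in Ago1 RISC for Arc1 in 1 of 16 and for CR10102 in 7 of 16 cases, of Ago2 against Ago1 for CR10102 in 19 of 32, and of the ratio between precipitates in 10 of 32. Counts of rows called moved by over 1.5 times with the setting: for age in Ago1 RISC 3 rows, between 1 (no filter) and 31 (DESeq2), for genotype in Ago1 3, between 1 (median of ratios) and 19 (DESeq2), for age in Ago2 10, up to 71 (replicate block), for genotype in Ago2 20, up to 281 (without rRNA rows), for sex in Ago1 483, between 191 (mean of at least 20 reads) and 832 (no filter), and for Ago2 against Ago1 688, down to 268 (median of ratios). Without 1 library the counts ran from 0 to 9 for age in Ago1 (122 rows at an unadjusted p under 0.05 at the lowest), 1 to 2 for genotype in Ago1, 0 to 48 for age in Ago2 (145 at the lowest) and 15 to 32 for genotype in Ago2, and those of the other comparisons in which rows were called stayed within 1.5 times. Arc1 counts in 5 d females were 18 to 96 in Ago1 and 26 to 62 in Ago2 libraries, which limits the precision there.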
